A study of Mus musculus with 4 samples.

Results

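The imprinted domain of Peg3 on proximal mouse chromosome 7 holds Peg3, Usp29, Zim1, Zim2, Zim3 and Zfp264, and its genes were chosen here by their symbols. Of these 6 genes, 5 were among the 24026 genes of the RNAseq table from F123-ESCs, and Zfp264 was not analysed here. F123-ESCs are a male hybrid embryonic stem cell line of genotype S129/CAST, in which the maternal chromosomes are of the S129 strain and the paternal chromosomes of the CAST strain. All 4 libraries, replicates 1 to 4, are of untreated cells of this one line, which were grown with LIF on feeder fibroblasts, passaged without feeders and harvested after about 48 h. The values are RPKM of each allele, so each gene has 4 S129 and 4 CAST values, and the alleles were paired by library. Each S129 allele is maternal and each CAST allele is paternal, so parent of origin and strain cannot be told apart in this cross.

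Imprinted genes are expressed mainly from the copy inherited from one parent, because DNA methylation placed in one germline is kept on that copy after fertilisation. In this domain, the controlling region lies at the start of Peg3 and Usp29 and is methylated on the maternal copy. Peg3 and Usp29 are known as paternally expressed, whereas Zim1 is known as maternally expressed. For Zim2, Zim3 and Zfp264 no known direction is given here. Agreement of the whole domain with known imprinting was therefore not examined. Peg3 encodes a large zinc finger protein of the nucleus that is known for its roles in growth and maternal care, Usp29 belongs to the ubiquitin-specific peptidases, and Zim1 encodes a zinc finger protein.

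In mm10, the genes follow each other along chromosome 7 as Zim2 (ENSMUSG00000108113; chr7:6651748-6662368, minus strand), Zim1 (ENSMUSG00000002266; chr7:6671269-6696450, minus strand), Peg3 (ENSMUSG00000002265; chr7:6703892-6730431, minus strand), Usp29 (ENSMUSG00000051527; chr7:6730578-6967219, plus strand) and Zim3 (ENSMUSG00000108043; chr7:6955685-6977420, minus strand). Zim2 is annotated as a processed transcript without a protein product and Zim3 as an antisense transcript, while the other 3 are protein-coding. Peg3 and Usp29 point away from each other, with 146 bases between their annotated starts. The stretch that no annotated transcript of either gene covers is the shared upstream region of both genes, and it is shown since both had the strongest difference between the alleles. The stretches upstream of Zim1 and Zim2 are shown beside it. All are RefSeq sequence of GRCm38.p6, written 5′ to 3′, and capitals mark the letters CCAAT on either strand.
Between Peg3 and Usp29, chr7:6730463-6730558, plus strand: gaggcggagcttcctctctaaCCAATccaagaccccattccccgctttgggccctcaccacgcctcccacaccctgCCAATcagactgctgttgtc
Upstream of Zim1, chr7:6696541-6696682, minus strand: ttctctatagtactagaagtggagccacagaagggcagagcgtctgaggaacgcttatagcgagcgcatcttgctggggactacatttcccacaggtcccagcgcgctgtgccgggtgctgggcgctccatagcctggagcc
Upstream of Zim2, chr7:6662369-6662618, minus strand: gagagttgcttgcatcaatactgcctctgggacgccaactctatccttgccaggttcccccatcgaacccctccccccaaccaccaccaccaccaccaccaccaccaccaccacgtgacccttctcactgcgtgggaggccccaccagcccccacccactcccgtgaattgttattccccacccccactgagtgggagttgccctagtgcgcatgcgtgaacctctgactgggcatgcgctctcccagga

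Promoter windows of 250 bases before to 50 bases after the start were found for 4 of the 5 genes. The CCAAT box was searched as CCAAT on both strands and is held by 37.4% of the 32851 promoter windows of the RefSeq table. It occurred 2 times in the windows of Peg3 and Usp29, which overlap and hold the same letters, and it was not found in the windows of Zim1 and Zim2. The cyclic AMP response element TGACGTCA, held by 1.79% of all windows, occurred once in the overlapping windows of Peg3 and Usp29. The letters TGCCGC, which the imprint-keeping protein ZFP57 is known to bind when methylated, are held by 11.6% of all windows and occurred once in that of Zim1. The GC box GGGCGG, held by 35.7% of all windows, also occurred once in that of Zim1 and in none of the other 3. TATAAA and GCCATNTT, the core of the YY1 site, were found in none of the 4 windows. The windows held 17 CpG for Usp29, 13 for Peg3, 20 for Zim1 and 9 for Zim2, where the median of all windows was 7.

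Peg3 had the highest deposited RPKM of the 5 domain genes analysed, and most of its reads came from the paternal CAST allele. The CAST allele had 38.4, 40.3, 43.2 and 37.4 RPKM in replicates 1 to 4, and the S129 allele had 4.42, 4.32, 4.69 and 4.51 RPKM. The CAST values were far above all S129 values, and the libraries differed little within an allele. The difference was -3.12 on the log2(RPKM+0.1) scale for S129 against CAST (SE 0.043, limma adjusted p = 4.07e-06 by the Benjamini-Hochberg method over 13341 genes), and CAST was higher in 4 of 4 libraries. As a ratio of RPKM without a pseudocount, CAST was 8.86-fold higher. Of the 12869 autosomal genes tested, 51, or 0.396%, differed at least as far toward CAST.

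The maternal S129 allele of Peg3 was lower, but reads were assigned to it in every library. Whether these reads come from the maternal copy of the stem cells was not tested. Of the RPKM of Peg3, the S129 allele had 10.1% ± 0.50 (SD, n = 4). The RPKM steps gave back the reads behind these values, and Peg3 had 683 to 1106 S129 reads and 5430 to 9302 CAST reads in a library. Over all libraries, 3755 of 35979 reads were S129, a share of 10.4% with an exact 95% binomial interval from 10.1% to 10.8%, which covers counting error only. In single libraries the lowest bound of this interval was 9.47%. For comparison, the CAST share of the reads on 671 X-linked genes, of which the male cells hold only the S129 copy, was 0.101% to 0.114% in the 4 libraries. This gives the rate at which reads of X-linked genes were placed on CAST, in which reads of other cells, if present, are included. The rate at which CAST reads were placed on S129 cannot be read from the X chromosome.

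RNA of feeder fibroblasts could also be counted in these libraries, so the marker list of these cells was examined. Of 10 fibroblast markers, none was at 0 in all columns and 8 had at least 1 RPKM. Their summed level was 362 to 455 RPKM, of which the collagen gene Col1a2 had 332 ± 35.0 RPKM (SD, n = 4) and Postn 30.8 ± 4.48 RPKM (SD, n = 4), while Lum had 0.0924 RPKM and Fap 0.0704 RPKM. Of the 8 tested, limma called 6 higher on S129 and 2 higher on CAST, where 31.4% and 31.3% of all tested genes were called so. Thy1, a surface protein of fibroblasts and other cells, lay farthest toward S129, with 79.9% of its reads and a level of 3.15 RPKM. The 2 called higher on CAST were Postn, with 41.8% of its reads on S129, and Col1a1, with 42.0% and a level of 11.4 RPKM. Of the summed RPKM of the 10 markers, with each column weighted by its read total, S129 had 54.1%. By the same measure, S129 had 57.1% of the summed RPKM of the 10 embryonic stem cell markers. The median S129 share of reads over 12869 autosomal genes, which does not weight genes by level, was 50.6%. All 10 embryonic stem cell markers had at least 1 RPKM, with a summed level of 16307 to 19440 RPKM. The part of feeder RNA in the S129 reads of Peg3 was not tested.

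**Figure D1:**
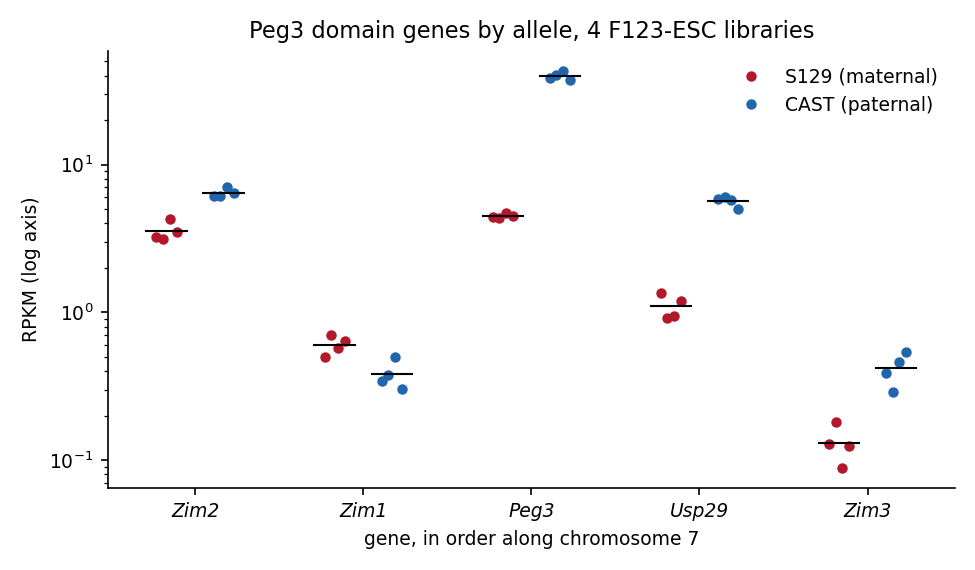
RPKM of the S129 allele (red) and the CAST allele (blue) of each Peg3 domain gene on a log axis, with a point for each of 4 libraries and a line at the mean. CAST lies above S129 in every library for Peg3, Usp29, Zim2 and Zim3, and S129 lies above CAST for Zim1.

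Usp29 showed the same direction as Peg3, with which it shares its upstream region. The CAST allele had 5.88, 6.05, 5.73 and 4.99 RPKM in replicates 1 to 4, and the S129 allele had 1.35, 0.908, 0.949 and 1.19 RPKM. All CAST values were above all S129 values. The log2 difference was -2.28 for S129 against CAST (SE 0.13, limma adjusted p = 2.51e-04), and CAST was higher in 4 of 4 libraries, by 5.21-fold as a ratio of RPKM. The S129 share of RPKM was 16.3% ± 3.10 (SD, n = 4), from 13.1% in replicate 2 to 19.2% in replicate 4. These shares rest on 55 to 103 S129 reads in a library, and their exact 95% binomial intervals ran from 10.5% to 17% in replicate 2 and from 15.3% to 25.0% in replicate 4, so that the intervals overlapped.

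In Usp29 the S129 share was above that of Peg3 in all 4 libraries. The log2 ratio of S129 to CAST was lower in Peg3 than in Usp29 by 0.77 ± 0.26 (SD, n = 4). An exact permutation test that flips the sign of each library's difference, two-sided, gave p = 0.13, the smallest value possible with 4 libraries, and 0.25 after adjustment over the 4 pairs of neighbours in the order of shares. The pooled intervals, 10.1% to 10.8% for Peg3 and 14.9% to 18.5% for Usp29, did not overlap. They cover counting error only and not the spread between libraries, so no difference is read from them. Only reads over SNPs between the strains were counted, and the SNPs of each gene were not used here.

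Zim2, the transcript at the proximal end of the domain, was also higher on CAST, with a smaller difference. It had 6.11, 6.14, 7.05 and 6.41 RPKM on CAST and 3.24, 3.13, 4.29 and 3.47 RPKM on S129 in replicates 1 to 4. The alleles did not overlap, and replicate 3 had the highest value of both. The log2 difference was -0.85 for S129 against CAST (SE 0.052, limma adjusted p = 2.99e-04), with CAST higher in 4 of 4 libraries by 1.83-fold as a ratio of RPKM. The S129 share of RPKM was 35.4% ± 1.74 (SD, n = 4), and 393 of 1082 reads were S129. A difference at least as far toward CAST was held by 1053, or 8.18%, of the autosomal genes tested.

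Peg3, Usp29 and Zim2, the 3 domain genes whose alleles summed to 1 RPKM or more, were all called higher on CAST by limma. At the same threshold, 31.3% of all tested genes were called higher on CAST and 31.4% higher on S129, or 62.7% in either direction. In 22.2% all CAST values lay above all S129 values and in 23.3% the opposite was found, so a call by itself was frequent in this hybrid line. The sizes were less frequent. Differences of at least 4-fold toward CAST on the log2(RPKM+0.1) scale, as in Peg3 and Usp29, were found in 189 of 12869 autosomal genes, or 1.47%. The 3 genes kept their call under each alternative tried, including each library left out in turn.

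**Figure D2:**
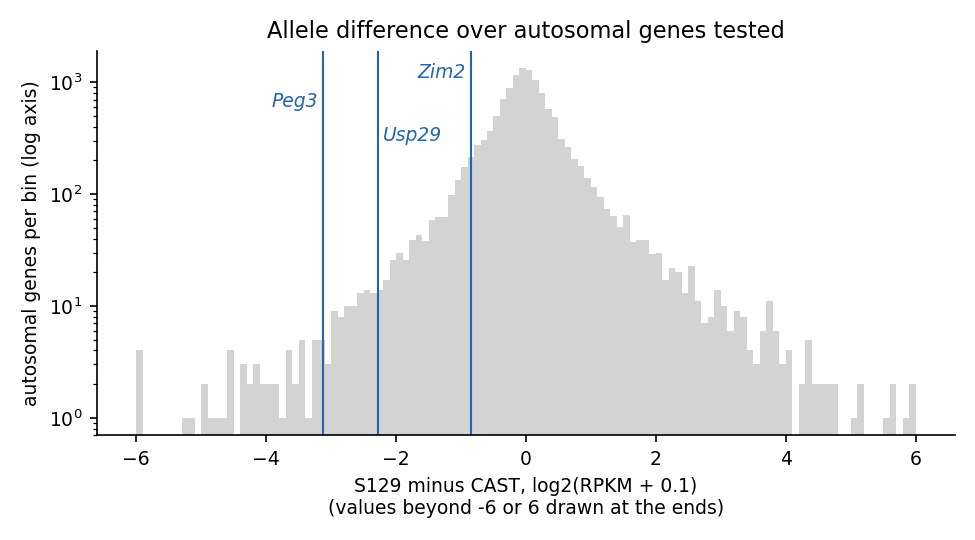
Number of autosomal genes (log axis) by the allele difference on the log2(RPKM+0.1) scale in bins of 0.1, with blue lines at Peg3, Usp29 and Zim2. Peg3 at -3.12 and Usp29 at -2.28 lie in the sparse CAST side of the distribution, and Zim2 at -0.85 lies on its slope.

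Zim1 and Zim3 were expressed at low levels and did not reach the 1 RPKM needed for the test. Zim1 was just under it, with 0.983 RPKM for both alleles together. They were tested in the fit on the 17383 genes with at least 0.1 RPKM, of which 26.4% were called higher on S129 and 25.2% higher on CAST, or 51.6% in either direction. All S129 values lay above all CAST values in 21.4% of these genes, and all CAST values above all S129 values in 19.5%.

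Zim1 was the only one of the 5 genes with more reads from the maternal allele. Its S129 allele had 0.501, 0.699, 0.572 and 0.635 RPKM in replicates 1 to 4, and its CAST allele had 0.345, 0.375, 0.501 and 0.303 RPKM. S129 was higher in 4 of 4 libraries, and the lowest S129 value, in replicate 1, was barely above the highest CAST value, in replicate 3. The log2 difference was 0.55 for S129 against CAST (SE 0.14, limma adjusted p = 0.0323 on this fit). With a library left out the difference stayed between 0.45 and 0.68, and the call was lost without replicate 1 (limma adjusted p = 0.0857), replicate 2 (0.113) or replicate 4 (0.0845) and kept without replicate 3 (0.0261). The S129 share of RPKM was 61.3% ± 6.40 (SD, n = 4), and 442 of 717 reads were S129, with an exact 95% binomial interval from 58.0% to 65.2%. A difference at least as far toward S129 was held by 15.6% of 16742 autosomal genes.

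Zim3, the antisense transcript at the distal end of Usp29, was higher on CAST in all 4 libraries. It had 0.389, 0.290, 0.459 and 0.538 RPKM on CAST and 0.129, 0.181, 0.0884 and 0.12 RPKM on S129. The alleles did not overlap, but each S129 value rests on only 7 to 15 reads. The log2 difference was -1.16 for S129 against CAST (SE 0.22, limma adjusted p = 0.0140 on the fit with 0.1 RPKM). CAST was 3.22-fold higher as a ratio of RPKM. With a library left out the log2 difference stayed between -1.39 and -1.02, and the call was lost without replicate 1 (limma adjusted p = 0.0561), replicate 3 (0.0539) or replicate 4 (0.0515) and kept without replicate 2 (0.00886). The S129 share of RPKM was 24.6% ± 9.96 (SD, n = 4), and over all libraries 41 of 163 reads were S129.

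The exons of Zim3 and Usp29 overlap on opposite strands. Of the 3226 bases of the Zim3 transcript whose length was used for the RPKM, 2582 lie in annotated exons of Usp29. The RNA libraries were stranded, but whether the strand was used in counting is not given in the sources used here, so reads of Zim3 and of Usp29 cannot be told apart in this stretch. The transcript of Usp29 whose length was used for its RPKM shares no exonic base with Zim3. Whether reads were counted over that transcript alone is not given in the sources used here. Reads of the shared stretch may thus also enter the values of Usp29.

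**Figure D3:**
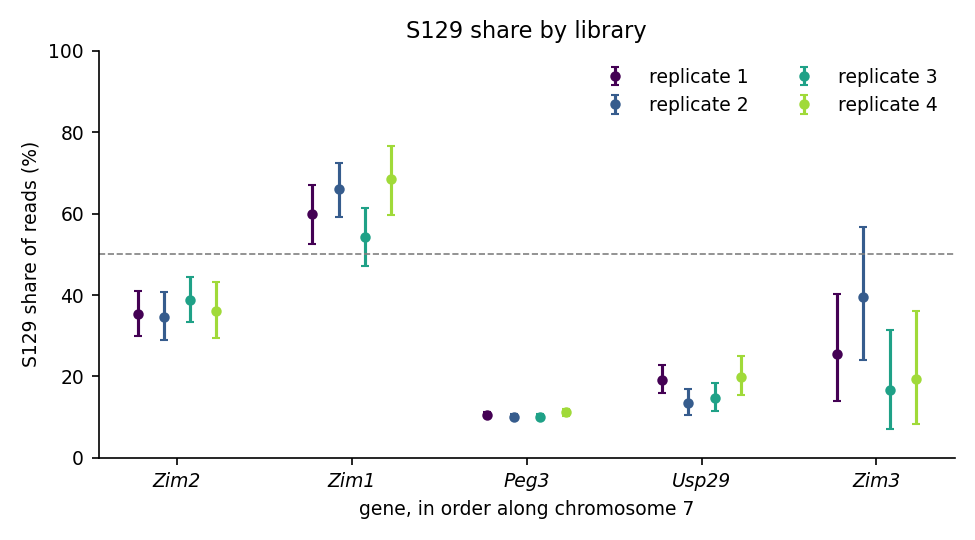
S129 share of reads of each Peg3 domain gene in each of 4 libraries, in percent, with exact 95% binomial intervals that cover counting error only, and a dashed line at 50%. Peg3 lies between 10.1% and 11.2%, Usp29 between 13.5% and 19.9%, Zim2 between 34.7% and 38.7% and Zim1 between 54.3% and 68.5%, and the intervals of Zim3 are the widest.

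By level, the sum of both alleles placed Peg3 first, at 44.3 ± 2.65 RPKM (SD, n = 4). Zim2 followed with 9.96 ± 0.96 RPKM, Usp29 with 6.76 ± 0.45 RPKM, Zim1 with 0.983 ± 0.11 RPKM and Zim3 with 0.550 ± 0.081 RPKM (SD, n = 4 each). The order was the same in all 4 libraries, and no neighbours in it overlapped. Between neighbours, the level differed on the log2(RPKM+0.1) scale by 2.14 ± 0.091 from Peg3 to Zim2, 0.55 ± 0.19 from Zim2 to Usp29, 2.67 ± 0.19 from Usp29 to Zim1 and 0.74 ± 0.26 from Zim1 to Zim3 (SD, n = 4). For each of these 4 pairs the same exact permutation test gave p = 0.13, before and after adjustment.

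The place of Usp29 in this order depended on the length of the gene. The deposited RPKM of Usp29 were made with a transcript of 2660 bases, while its 9 annotated transcripts together cover 18078 exonic bases. With the exon union as length, Usp29 had 0.995 RPKM and Zim1 0.935 RPKM, and Usp29 was higher in 3 of 4 libraries, by 0.085 ± 0.19 (log2, SD, n = 4, exact permutation test, p = 0.625), which is within the spread between libraries. Peg3, with a transcript of 8694 bases and an exon union of 13324 bases, then had 28.9 RPKM and stayed first, ahead of Zim2 with 9.0 RPKM. The allele shares do not depend on this length. Levels of different genes also depend on how many SNPs they hold, so they are an order of deposited values and not of transcripts.

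The genes around the domain were called in both directions. From 1 Mb before to 1 Mb after the domain, 38 other genes were in the table, many of them olfactory and vomeronasal receptor genes. Of the 38, 14 were listed at 0 in all columns, among them a microRNA gene that lies within Usp29. Of the 15 with at least 1 RPKM, 7 were called higher on S129, 4 higher on CAST and 4 were not called. Of all tested genes, 31.4% were called higher on S129 and 31.3% higher on CAST, so calls in both directions were frequent throughout and nothing is read from these counts. Their median log2 difference was 0.38, against -0.0034 over all genes tested. Over 1082 genes of chromosome 7, the median S129 share of reads was 50.6%.

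The expressed genes nearest to each end of the domain were Smim17, which did not pass the test, and Aurkc, which was higher on S129. Aurkc, which encodes the meiotic kinase aurora C and starts at chr7:6995300, just beyond Zfp264, had 18.1 RPKM on S129 and 7.84 RPKM on CAST (log2 difference 1.20, SE 0.12, limma adjusted p = 0.00124). Zfp28, which starts at chr7:6383295, had 7.84 RPKM on S129 and 0.879 RPKM on CAST, a share of 90.2% of reads on S129 (log2 difference 3.02, SE 0.085, limma adjusted p = 3.15e-05). The difference of Zfp28 was thus about as large as that of Peg3, in the opposite direction. Nlrp4c, Zfp78, Zfp583, Zfp772 and Epp13 were also called higher on S129. Zscan5b, Zfp787, Zfp444 and Clcn4 were called higher on CAST, of which Zscan5b differed most, with a S129 share of 30.9% of reads. Zfp667, Zfp954, Zfp418 and Smim17 did not pass the test, with S129 shares of 49.8%, 49.4%, 59.1% and 35.2% of reads.

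**Figure D4:**
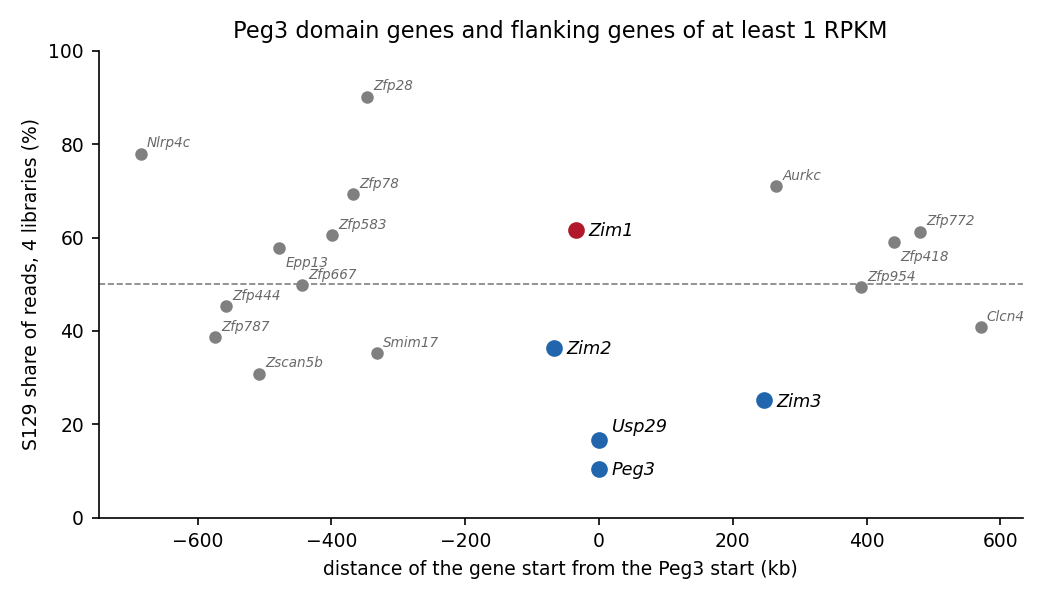
S129 share of reads over 4 libraries, in percent, by the distance of each gene's start from that of Peg3 in kb, for the 5 domain genes (blue where CAST has more reads, red where S129 has more) and for the 15 flanking genes with at least 1 RPKM (grey). Peg3 at 10.4% and Usp29 at 16.6% lie below every flanking gene shown, of which Zscan5b is lowest at 30.9%.

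Imprinted genes outside the domain gave a wide range of shares. Of 24 genes listed as paternally expressed, 19 had at least 1 RPKM. Of these 19, 10 were called higher on CAST, 1 higher on S129 and 8 were not called. The shares over all tested genes were 31.3% higher on CAST and 31.4% higher on S129. The median log2 difference of the 19 genes was -0.24, against -0.0034 over all genes tested. The RNA Peg13 had the largest difference toward CAST in this list (log2 difference -1.99, SE 0.11, limma adjusted p = 2.54e-04) and a S129 share of 17.6% ± 3.13 of RPKM (SD, n = 4). Rtl1, derived from a retrotransposon, was called higher on S129 (log2 difference 1.10, limma adjusted p = 4.29e-04). It lies on the minus strand of chromosome 12, between Meg3 and Rian on the plus strand. Whether the strand was used in counting is not given in the sources used here. Whether reads of the plus strand enter the values of Rtl1 was not tested. Ndn, which encodes the growth suppressor necdin, had a S129 share of 31.9% ± 3.52 of RPKM (SD, n = 4). Impact had the highest level in the list, with 225 RPKM and 50.2% ± 0.38 on S129, followed by Mest with 210 RPKM and 42.4% ± 0.51 and Peg10 with 194 RPKM and 44.1% ± 0.51 (SD, n = 4 each). No gene of the 19 had a lower S129 share than Peg3, and none had a lower share than Usp29. For Zim2, 3 genes did.

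Of 19 genes listed as maternally expressed in at least some tissue, 17 had at least 1 RPKM, and 12 of these were called higher on S129, 1 higher on CAST and 4 were not called. Over all tested genes, 31.4% were called higher on S129 and 31.3% higher on CAST. The median log2 difference of the 17 genes was 0.36, against -0.0034 over all genes tested. On the log2(RPKM+0.1) scale the largest differences were 2.17 in Rian, 2.04 in Meg3 and 1.73 in Mirg, noncoding RNAs of chromosome 12, with S129 shares of 81.8% ± 0.56, 80.5% ± 0.78 and 77.1% ± 0.41 of RPKM (SD, n = 4). Phlda2, with 1.73 on this scale as well, had a share of 77.4% ± 1.42 of RPKM (SD, n = 4). H19 had the highest level, 2098 RPKM, and a share of 52.5% ± 0.48 on S129. Zim1, with 61.3% ± 6.40, lay near Osbpl5 with 61.2% ± 2.40 and Cdkn1c with 61.9% ± 5.82 of RPKM on S129 (SD, n = 4 each). Osbpl5 and Cdkn1c were named after their values were seen, so nothing is read from this nearness.

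**Figure D5:**
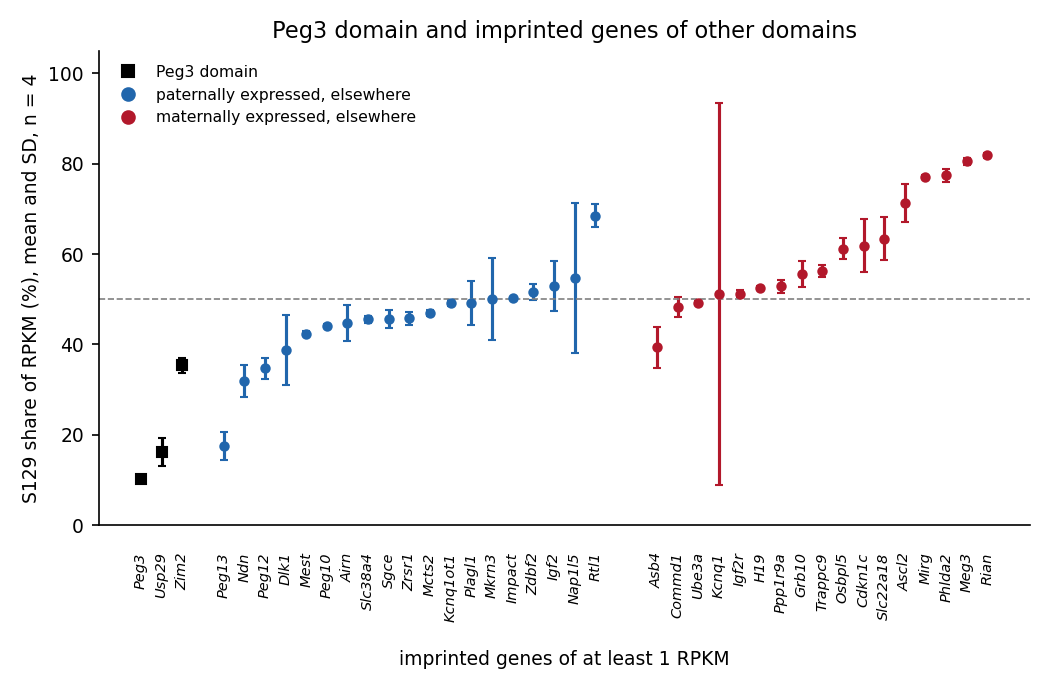
S129 share of RPKM in percent, mean and SD over 4 libraries, of Peg3, Usp29 and Zim2 (black), of 19 paternally expressed genes of other domains (blue) and of 17 maternally expressed genes of other domains (red), each with at least 1 RPKM, and a dashed line at 50%. Peg3 at 10.1% is the lowest point, Usp29 and Peg13 follow at 16.3% and 17.6%, and Rian is the highest at 81.8%.

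Factors known to keep or to bind imprinted regions were all expressed, with each of the 15 listed genes above 1 RPKM. Dnmt3l, the cofactor of the DNA methyltransferases, had 4284 ± 172 RPKM, Trim28, the corepressor recruited by zinc finger proteins, 2620 ± 246 RPKM and Zfp42 1025 ± 94.3 RPKM as the sum of both alleles (SD, n = 4 each). Dnmt1, which copies methylation to new DNA strands, had 111 ± 11.6 RPKM, and Yy1, known to bind in the Peg3 control region, 14.7 ± 1.73 RPKM (SD, n = 4 each). Of the 15 genes, 3 were called higher on S129 and 11 higher on CAST, with a median log2 difference of -0.18. Over all tested genes, 31.4% were called higher on S129 and 31.3% higher on CAST, and the median was -0.0034. The calls toward CAST included small differences, such as -0.17 in Dnmt1. The largest allele difference was in Zfp57, which encodes the zinc finger protein that keeps methylation at imprinted regions, with 39.8 RPKM on S129 and 10.8 RPKM on CAST (log2 difference 1.88, SE 0.069, limma adjusted p = 6.72e-05). Setdb1 and Tet2, with log2 differences of -1.15 and -0.95, lie on chromosome 3, where the median S129 share of reads over 622 genes was 38.1%.

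The genes whose values were most like those of Peg3 were found as the smallest Euclidean distance over the 8 columns on the log2(RPKM+0.1) scale, among 13341 genes. They were Serpina3h (distance 0.686) and Serpina3m (1.08) on chromosome 12, Mettl7a1 (1.15) on chromosome 15, Ptpn18 (1.35) on chromosome 1 and Nlrp4f (1.48) on chromosome 13. Serpina3h had 33.0 ± 3.06 RPKM on CAST and 4.23 ± 0.52 RPKM on S129 (SD, n = 4), against 39.8 ± 2.56 and 4.49 ± 0.16 RPKM in Peg3. None of these 5 genes was in a list of imprinted genes used here. Serpina3h and Serpina3m belong to a family of near copies, between which reads may be divided wrongly, so their values are uncertain.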

How the data were processed

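RNAseq of 4 libraries of untreated F123-ESCs was analysed. The authors filtered ribosomal RNA with SortMeRNA, trimmed reads with Trimmomatic (0.40), aligned them with STAR to mm10 masked at SNPs and divided them by allele with SNPsplit. They deposited RPKM per gene, allele and library, and also the mean RPKM and its log10 (RPKM plus 1), neither of which was used. The counting program, its annotation and strand setting are not given in the sources used here. Reads without a SNP enter no value.

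Symbols were matched to GENCODE M21 (mm10) by Ensembl identifier, for 23995 of 24026 genes. Read totals were recovered from the RPKM steps and were 34120416 to 56627972 per library over both alleles. With the length of the first listed transcript, 17608 of 20243 genes above 0 gave whole reads within 0.02 reads in all columns, all 5 domain genes included. A read on 1 kb stands for 0.0348 to 0.0598 RPKM.

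Alleles were compared by limma (3.58.1, R 4.3.3) on log2(RPKM+0.1), as S129 minus CAST paired by library, where the 2 allele means summed to 1 RPKM or more, called at an adjusted p under 0.05. Differences of low genes are understated on this scale. Pairing comes from both alleles being reads of one library. Over 10915 genes, deviations from the allele means correlated at 0.155 to 0.278 within libraries and at -0.249 to 0.223 between libraries. No label says that the libraries are separate cultures, so p-values measure the spread between libraries, which may be technical. On the S129 reads of 8915 genes, no pair of libraries agreed within sampling noise (chi-square per degree of freedom 3.51 to 47.5). Single values used two-sided exact sign-flip permutation tests (smallest p 0.13) and exact binomial intervals. The steps were also run on simulated data without pairing by library, which tests the code and not the spread between these libraries.

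The members, lists and tests were chosen with earlier results of these data known. Named are the domain genes, flanking genes with at least 1 RPKM, the 5 genes nearest to Peg3 and, from each list of imprinted genes and of factors, the 3 with the largest allele difference or highest level. Cdkn1c, Osbpl5, Phlda2, Dnmt1, Yy1, Col1a1, Col1a2, Fap, Lum, Postn and Thy1 were named after their values were seen. Alternatives were other pseudocounts and filters, no pairing, a centred scale, a variance trend, each library left out, reads in place of RPKM, pooled, rescaled or median values, autosomal genes alone and the exon union as length.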

Additional observations from a re-analysis of the deposited data

Results flagged for a closer look

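Dixon's criterion for 4 values at the 95% level was applied to 20 quantities, the S129 RPKM, CAST RPKM, their sum and the S129 share of each of the 5 domain genes. No library stood apart from the others in any of these 20 quantities, where chance gives about 1 in 20.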

How the results depend on the processing

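Of 240 values under alternatives, 223 kept their call or moved by less than 1 SD (for a count, by less than 1.5 times), and none reversed. The added alternatives, chosen after the data were seen, were autosomal genes alone, the exon union as length, and the filter of 0.1 RPKM combined with no pairing or with a library left out. Without the replicate block, 3292 genes were called higher on S129 and 3133 higher on CAST in place of 4187 and 4182, and the same 3 domain genes kept their call. For Zim1, a pseudocount of 1 gave 0.21 (log2) in place of 0.55. Its 0.55 passed the threshold of limma without a filter (adjusted p = 0.0373), at 0.1 RPKM (0.0323) and at 0.1 RPKM without the block (0.0149), and ran from 0.45 to 0.68 with a library left out. For Zim3, a pseudocount of 1 gave -0.33 in place of -1.16. Its -1.16 passed without a filter (adjusted p = 0.0160), at 0.1 RPKM (0.0140) and at 0.1 RPKM without the block (9.69e-04), and ran from -1.39 to -1.02 with a library left out. The number of domain genes called higher on S129 was thus 1 in place of 0 without a filter, at 0.1 RPKM and at 0.1 RPKM without the block, and 0 to 1 with a library left out. Both genes lie under 1 RPKM, so the variance trend and the block at that filter gave no test for them. With the exon union as length, the level was 28.9 RPKM for Peg3, 0.995 RPKM for Usp29 and 9.0 RPKM for Zim2, by construction. Depth limits Zim3 most, at 36 to 47 reads in a library.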
